A study of Mus musculus with 6 samples.

Results

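The genes described here are 35 immediate-early and heat-shock genes, chosen by symbol from the 32285 genes of the deposited matrices, and every symbol matched 1 gene. They comprise 26 immediate-early genes, 7 cytosolic heat-shock chaperones and 2 mitochondrial chaperonins. Their transcripts were counted in single cells of mouse back skin and summed per library and cell population, to see which populations carried a program of dissociation or activation and whether the capillary endothelial cells (ECs) named Cap-Rgcc carried most of it.

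The study sorted live tdTomato+ cells of the VE-cadherin (*Cdh5*) lineage from digested dorsal skin in the resting (telogen) and growing (anagen) phase of the hair cycle and in mice lacking the endothelial BMP receptor ALK1, the product of *Acvrl1*. WT telogen was taken at postnatal day (PD) 20 and WT anagen at PD 32, each from 2 mice of strain C57BL/6;CD1 with the alleles tdTomato, *Cdh5*-CreERT2 and *Krt14*-H2BGFP. Alk1 KO telogen was taken at PD 25 from 2 mice of strain C57BL/6 that were Alk1 flox/flox with tdTomato and *Cdh5*-CreERT2 and without *Krt14*-H2BGFP. All 6 mice received tamoxifen at 200 µg/g on PD 17, so that Cre and tamoxifen were shared by all groups but the time from tamoxifen to collection was not. Each mouse gave 1 library, named S1 or S2 within its group. The Alk1 KO mice thus differed from WT telogen in age, time since tamoxifen, strain, the *Krt14*-H2BGFP allele and the experiment as well as in genotype, and these cannot be told apart. GEO's genotype field of the Alk1 KO samples reads wild type while their titles name the knockout, and the titles were followed. Cre was driven by the *Cdh5* promoter, and the sorted cells also held immune cells, fibroblasts and other non-endothelial cells, as the marker genes below showed.

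Immediate-early genes are transcribed within minutes of a stimulus, without new protein synthesis, when signalling kinases act on transcription factors already bound to their promoters. Their products are transcription factors such as the AP-1 dimers of Fos and Jun proteins, and regulators that end the response, such as phosphatases of the MAP kinases. Heat-shock genes are induced by heat shock factor HSF1 when proteins unfold, and enzymatic digestion of a tissue at warm temperature is known to switch on both groups in freshly isolated cells.

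Both groups are controlled at transcription, and promoter sequence is shown for some of the genes that held the elements described here. RefSeq's table for mouse build GRCm38.p6 held a promoter for 29 of the 35 genes, and *Fosl1*, *Egr1*, *Egr3*, *Ier2*, *Myc* and *Hsp90aa1* had none. Over the 250 bases before each start and on both strands, the heat shock element of inverted units, GAANNTTC or TTCNNGAA, stood in 10 genes, of which 7 were chaperones or chaperonins and the others *Fosl2*, *Jun* and *Egr2*, against 12.8% of all 32851 promoters. The cAMP response element core, TGACGT or ACGTCA, stood in 9 immediate-early genes, against 6.47% of all promoters. The CArG box, bound by serum response factor, stood in *Egr2*, *Dusp5* and *Zfp36*, against 1.47% of all promoters, and the AP-1 element TGANTCA stood in none of the genes, against 6.75%. A gene was counted if any of its promoters matched, whereas the shares of all promoters are per promoter. Counted per promoter, the genes had 40. The heat shock element stood in 11 of these, the cAMP response element core in 11, the CArG box in 6 and the AP-1 element in 0. A match is a description of these letters and not evidence of a bound site. The heat-shock promoters are shown over the last 150 bases before the start, read along the gene's strand, with heat shock elements in capitals.
Hspa1a, chr17:34972157-34972306, minus strand: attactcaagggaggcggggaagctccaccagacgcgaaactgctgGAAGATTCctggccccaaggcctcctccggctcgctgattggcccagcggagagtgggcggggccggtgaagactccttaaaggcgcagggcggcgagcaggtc
Hspa1b, chr17:34959239-34959388, minus strand: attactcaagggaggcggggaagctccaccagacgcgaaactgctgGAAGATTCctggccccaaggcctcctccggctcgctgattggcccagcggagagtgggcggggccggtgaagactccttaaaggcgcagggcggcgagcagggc
Hspe1, chr1:55087998-55088147, plus strand: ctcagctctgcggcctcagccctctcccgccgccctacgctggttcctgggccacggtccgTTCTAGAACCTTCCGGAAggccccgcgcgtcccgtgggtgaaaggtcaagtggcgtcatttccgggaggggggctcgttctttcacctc
Hspb1, chr5:135887769-135887918, plus strand: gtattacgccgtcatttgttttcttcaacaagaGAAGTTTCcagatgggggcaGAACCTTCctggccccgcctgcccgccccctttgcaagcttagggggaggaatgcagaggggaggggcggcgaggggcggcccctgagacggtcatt

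The *Hspa1a* and *Hspa1b* promoters differed at 3 of 250 bases, and at 1 of the 150 shown. These 2 genes encode almost the same inducible chaperone, so their split of reads between the copies is uncertain and their values below are to be read together. *Hspe1* and *Hspd1*, which encode the partners of the mitochondrial chaperonin, start 216 bases apart and point away from each other, so that they share the sequence between them.

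The immediate-early promoters are shown in the same way for *Fos*, an AP-1 subunit, *Egr2*, a zinc-finger factor, and *Dusp5*, a nuclear phosphatase of ERK, with cAMP response element cores and CArG boxes in capitals. *Egr2* has 5 starts in the table, of which 1 is shown.
Fos, chr12:85473740-85473889, plus strand: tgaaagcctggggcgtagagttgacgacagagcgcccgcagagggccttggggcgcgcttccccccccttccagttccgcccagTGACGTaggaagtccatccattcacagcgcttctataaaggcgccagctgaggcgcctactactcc
Egr2, chr10:67537719-67537868, plus strand: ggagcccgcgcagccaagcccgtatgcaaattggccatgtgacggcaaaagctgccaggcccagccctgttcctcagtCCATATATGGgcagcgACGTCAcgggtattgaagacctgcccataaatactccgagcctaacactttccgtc
Dusp5, chr19:53528995-53529144, plus strand: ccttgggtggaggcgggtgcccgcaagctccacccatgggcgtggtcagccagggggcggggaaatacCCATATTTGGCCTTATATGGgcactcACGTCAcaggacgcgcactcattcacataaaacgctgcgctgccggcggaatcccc

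The 6 libraries held 2283 to 6643 barcodes and 10615358 to 43317677 UMIs. Between 1713 and 5106 cells per library had 200 to 5000 detected genes and under 10% mitochondrial UMIs and were kept, 20941 in all, with medians of 4371 to 6935 UMIs. Pairs of libraries shared 2 to 13 barcodes. *Xist* stood at 856 to 938 UMIs per 1000000 UMIs of that group of cells (CPM) in telogen S1 and both Alk1 KO libraries and at no more than 0.0959 CPM in the others, so sex also differed between libraries and groups. The 35 genes took up 1.82, 1.51, 2.17, 2.23, 2.56 and 2.40% of the UMIs of kept cells in telogen S1 and S2, anagen S1 and S2 and Alk1 KO S1 and S2, and 1.34, 1.31, 1.24, 1.24, 0.941 and 0.812% of those of the barcodes that were removed, lower in each library.

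*Acvrl1*, the targeted gene, was checked first. It stood at 69.3, 51.4, 113, 129, 101 and 80.1 CPM in the kept cells of the 6 libraries in the same order, and at 318, 278, 269, 292, 315 and 257 CPM in Artery, where the 2 Alk1 KO libraries overlapped WT. In Cap-Rgcc it was 190.4, 182, 131, 132, 113 and 114 CPM and in Cap-Kdr 193, 159, 132, 152, 113 and 96.8 CPM, with both Alk1 KO libraries below all WT libraries. The labels do not say which exons are floxed and a 3′ tag may lie outside them, so these counts do not test the deletion.

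Populations were called from marker genes other than the 35, which took no part in the clustering. They were Artery, Vein, 2 capillary populations (Cap-Kdr and Cap-Rgcc), collecting and capillary lymphatic ECs (Lymph-Col and Lymph-Cap), the Cdh5+/Krt19+ population, and Pericyte-, Fibroblast-, Macrophage-, Dendritic or monocyte-, Mast- and T or NK-like cells. Cap-Rgcc, with 126 to 866 cells per library, had 11 of its 13 marker genes raised, but *Rgcc* itself was not higher there (979 to 1969.8 CPM in WT) than in Cap-Kdr (1333 to 2269 CPM). The 2 differed in *Kdr*, at 339 to 487 against 996 to 1098 CPM, and in the cytokine gene *Il6*, at 1475 to 2826 against 55.7 to 185 CPM. In WT Artery and Vein *Il6* was at 484 to 1678 and 958 to 1653 CPM, both overlapping Cap-Rgcc. *Il6* and other markers of Cap-Rgcc are themselves inducible, so its cells were set apart partly by genes that may move with the 35, whose part in the results was not tested. Proliferative cells, too few in Alk1 KO, and clusters left unnamed were not tested. The Pericyte-like cluster also held 579 to 2846 CPM of 8 endothelial markers. Single-cell sums do not separate more RNA per cell from more cells within a population, and since cells are not replicates every test below compares libraries.

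The program was present in every population, and the summed share of the 35 genes was not highest in Cap-Rgcc. In WT telogen the 35 genes took up 2.01% ± 0.0631 (SD, n = 2) of UMIs in Cap-Rgcc, 2.35% ± 0.483 in Cap-Kdr, 2.40% ± 0.384 in Artery, 1.74% ± 0.166 in Vein, 3.11% ± 0.258 in Lymph-Col and 1.86% ± 0.192 in Lymph-Cap. Among ECs Lymph-Col stood highest, with 3.30, 2.93, 3.17 and 2.90% in telogen S1 and S2 and anagen S1 and S2, and these values did not overlap those of Cap-Rgcc, 2.05, 1.96, 2.13 and 2.0%. The 4 WT libraries are given in this order throughout. Outside the endothelium, Cdh5+/Krt19+ cells held 2.81, 2.32, 3.01 and 3.05%, Fibroblast-like cells 1.43, 1.33, 1.76 and 1.87%, Macrophage-like cells 1.29, 1.27, 2.21 and 1.52% and Dendritic or monocyte-like cells 0.880, 0.910, 1.02 and 0.873%. The last were the lowest of the 12 populations measured in all 4 WT libraries. The 7 cytosolic chaperones alone gave another order. They took up 0.476, 0.390, 0.450 and 0.395% of UMIs in Cap-Rgcc, the highest of the 12 populations in telogen S1 and S2 and anagen S2. In Artery they took up 0.381, 0.344, 0.475 and 0.379% and in Lymph-Col 0.363, 0.335, 0.477 and 0.383%, both above Cap-Rgcc in anagen S1. These sums were not tested.

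Different genes peaked in different ECs. By mean WT level over the 6 EC populations, 14 of the 35 genes were highest in Lymph-Col, among them *Fos*, *Fosb*, *Jun*, *Junb*, *Jund*, *Egr1*, *Atf3* and *Maff*. Cap-Rgcc was highest for 6, namely *Fosl1*, *Fosl2*, *Myc*, *Ier3*, *Dusp1* and *Hspb1*. Artery was highest for 6, *Nr4a1*, *Nr4a2*, *Nr4a3*, *Ier5*, *Hspa1a* and *Dnaja1*, Lymph-Cap for 4, Cap-Kdr for 3 and Vein for 2. Over all 12 populations the Mast-like cells, with few cells per library, were highest for 10 genes and Cap-Rgcc for 5.

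**Figure D1:**
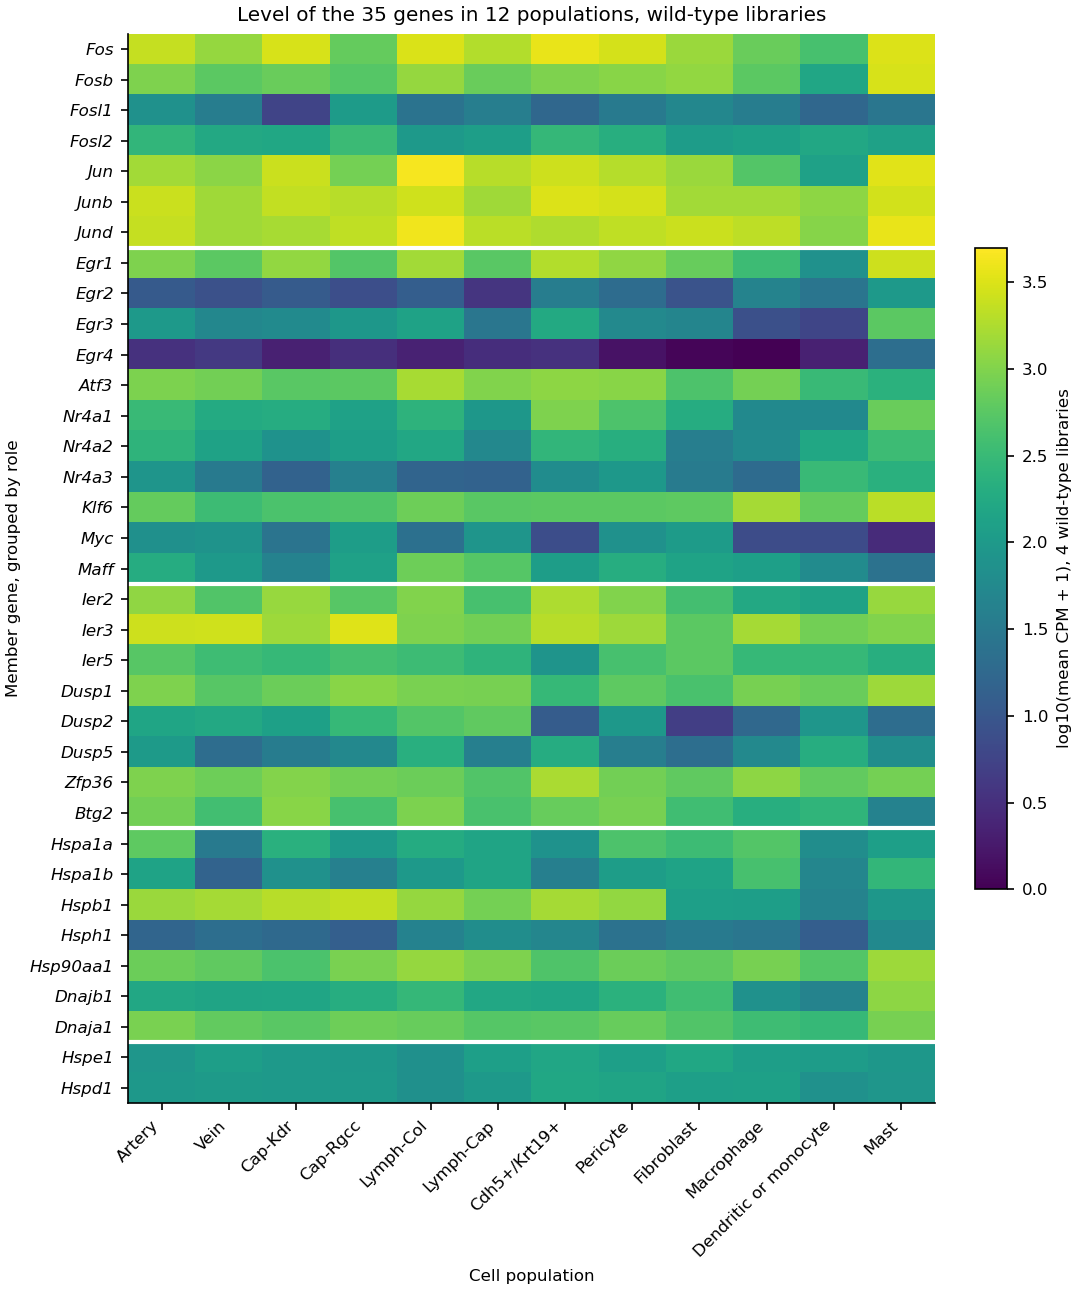
Mean level of each of the 35 genes over the 4 WT libraries, as log10(CPM + 1) on the colour scale, in 12 populations (columns), with genes in rows grouped by role and white lines between roles. Lymph-Col is bright for *Jun* and *Jund* and Cap-Rgcc for *Ier3* and *Hspb1*, while *Egr4* is near 0 almost everywhere.

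*Fos* and *Hspa1a* are followed across populations as 1 gene of each arm. Mean *Fos* over the 4 WT libraries fell in the order Cdh5+/Krt19+ (3803 ± 615 CPM, SD, n = 4), Mast (3178 ± 2793), Lymph-Col (3102 ± 621), Cap-Kdr (3011 ± 405), Pericyte (2880.2 ± 297), Artery (2406 ± 298), Lymph-Cap (1859 ± 139), Fibroblast (1369.6 ± 629), Vein (1318 ± 199), Macrophage (704 ± 532), Cap-Rgcc (672 ± 190.4) and Dendritic or monocyte (419 ± 85.9). Cap-Rgcc was thus the lowest of the ECs, at 479, 596, 928 and 686 CPM in the 4 libraries, below every library of each other EC population. Neighbours from Cdh5+/Krt19+ to Pericyte, from Lymph-Cap to Vein, and Macrophage with Cap-Rgcc differed by less than the larger of their SDs.

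*Hspa1a*, the inducible chaperone, followed another order. It was highest in Artery (609 ± 183 CPM), then in Macrophage (519 ± 358), Pericyte (461 ± 224), Fibroblast (339 ± 126), Cap-Kdr (219.8 ± 62.3), Lymph-Col (189 ± 105), Lymph-Cap (144 ± 114), Mast (122 ± 63.6), Cap-Rgcc (101 ± 55.2), Cdh5+/Krt19+ (76.4 ± 43.3) and Dendritic or monocyte cells (64.8 ± 29.3), and lowest in Vein (32.8 ± 10.1). Every pair of neighbours but the last differed by less than the larger of their SDs, whereas all Artery libraries, at 473, 436, 812 and 716 CPM, were above all Cap-Rgcc libraries, at 108, 60.6, 176 and 58.2 CPM.

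**Figure D2:**
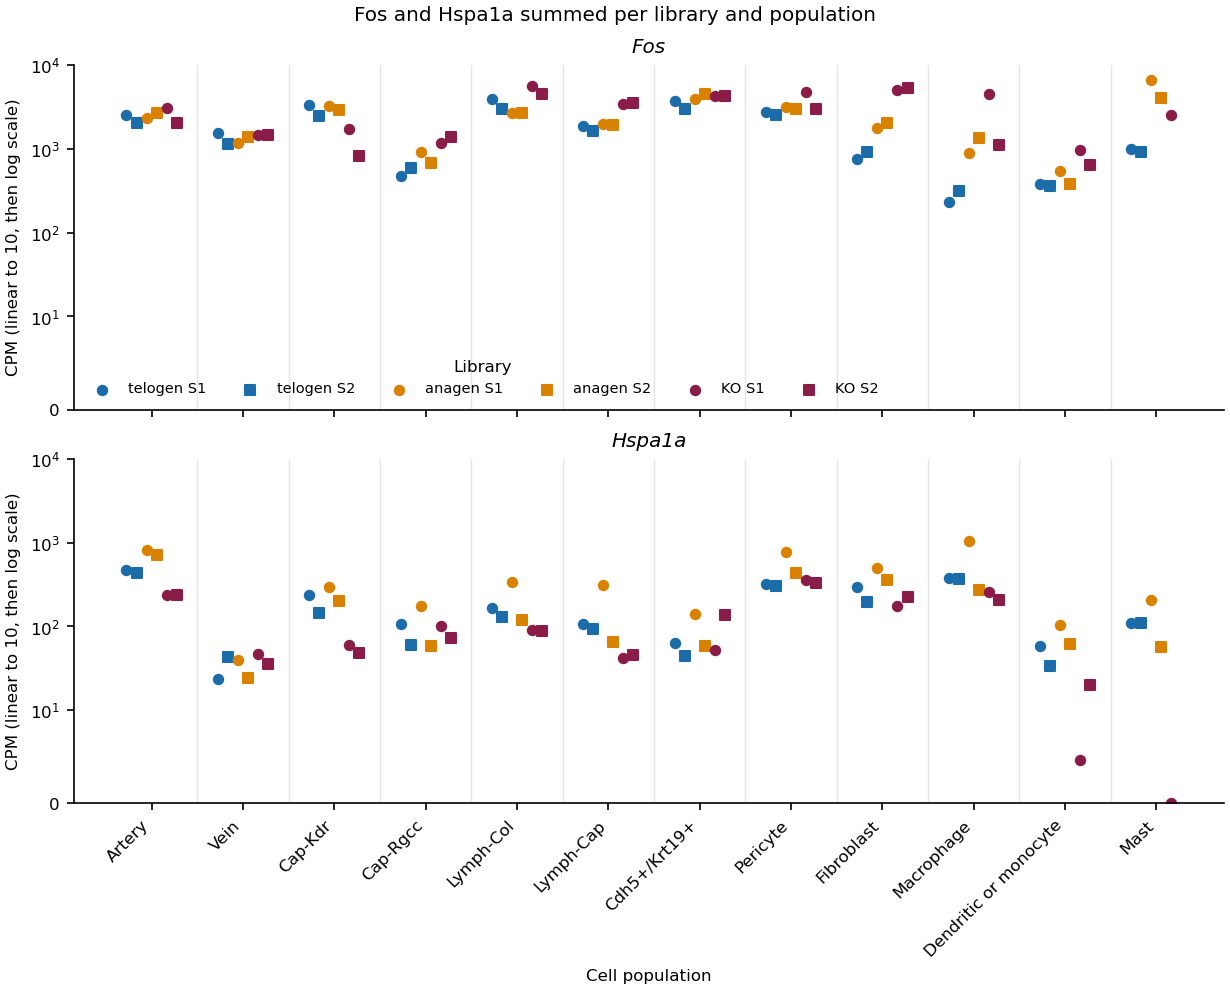
*Fos* (top) and *Hspa1a* (bottom) in 12 populations, as CPM on an axis that is linear to 10 and logarithmic above, with 1 point per library and colours and symbols for the 6 libraries. *Fos* in Cap-Rgcc lies at 479 to 928 CPM in WT and at 1179 and 1391 CPM in Alk1 KO, while in Cap-Kdr the Alk1 KO points lie below the WT points.

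Cap-Rgcc was compared with 4 other EC populations and differed from each in which genes of the program were higher or lower. Lymph-Cap was not tested against it. Tested over the 4 WT libraries with edgeR's quasi-likelihood test, the library as a block and Benjamini-Hochberg adjustment over all genes, and called at adjusted p under 0.05 and a fold above 1.3, 19 of the 33 genes tested were higher in Cap-Rgcc than in Cap-Kdr and 7 lower (all genes: 26.0% and 23.0%), with a median log2 fold change of 0.50 beside -0.03 over all genes. In the same test 8 of the 34 genes tested were higher in Cap-Rgcc than in Artery and 14 lower (all genes: 18.2% and 19.1%), with a median log2 fold change of -0.23 beside -0.02 over all genes. Against Vein, 16 of the 34 genes tested were higher in Cap-Rgcc than in Vein and 4 lower (all genes: 21.0% and 20.2%), with a median log2 fold change of 0.35 beside -0.02 over all genes. Against Lymph-Col, 10 of the 34 genes tested were higher in Cap-Rgcc than in Lymph-Col and 17 lower (all genes: 26.4% and 27.2%), with a median log2 fold change of -0.43 beside -0.04 over all genes. These shares stand beside 18.2% to 27.2% of all genes called in the same direction, and for genes lower than in Cap-Kdr or Vein the share of the 35 was below that of all genes, and for those higher than in Artery or Lymph-Col only a little above it. Over the 4 contrasts 4 genes were higher in Cap-Rgcc each time (*Fosl1*, *Fosl2*, *Myc* and *Hspb1*), 1 was lower each time (*Fos*), 10 were called in both directions and 3 in none. Of these 3, *Egr4* was not tested in any contrast. Fewer genes were higher than in Cap-Kdr with under 5% mitochondrial UMIs (9), without correction between libraries (12) or at a finer cluster resolution (11), higher than in Vein with under 5% mitochondrial UMIs (9), and higher than in Artery without the library block (4).

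Among AP-1 subunits, the FOS-related genes divided. *Fosl1*, which encodes FRA1, stood at 136, 111, 84.9 and 96.3 CPM in Cap-Rgcc and at 5.35, 1.43, 2.07 and 9.78 CPM in Cap-Kdr (log2 fold change 4.88 ± 0.26, adjusted p = 1.4e-12). It was also above 72.5, 76.2, 76.2 and 65.9 CPM in Artery (log2 fold change 0.63 ± 0.12, adjusted p = 0.00054), above 33.3, 46.2, 35.5 and 30.9 CPM in Vein (log2 fold change 1.60 ± 0.13, adjusted p = 1.3e-08) and above 16.7, 22.1, 25.2 and 34.5 CPM in Lymph-Col (log2 fold change 2.25 ± 0.19, adjusted p = 1.2e-07). No Cap-Rgcc library overlapped those of any of the 4 populations, and in Cap-Kdr *Fosl1* rested on 1 to 12 UMIs per library. *Fosl2*, for FRA2, was 425, 367, 262 and 272 CPM in Cap-Rgcc against 109, 107, 80.3 and 89.4 CPM in Lymph-Col (log2 fold change 1.96 ± 0.11, adjusted p = 9.5e-10). *Fos* went the other way, at 479, 596, 928 and 686 CPM in Cap-Rgcc and 3381, 2479, 3263 and 2922 CPM in Cap-Kdr (log2 fold change -1.88 ± 0.14, adjusted p = 2.6e-10). Against Artery its log2 fold change was -1.72 ± 0.13, against Vein -0.91 ± 0.14 and against Lymph-Col -2.02 ± 0.18, with adjusted p of 5e-08 to 2.3e-05 and no overlap of libraries. *Jun*, the main partner of FOS, was 728, 884, 972 and 744 CPM in Cap-Rgcc, below 3195, 2368, 2281 and 2343 CPM in Cap-Kdr (log2 fold change -1.3 ± 0.13, adjusted p = 3.6e-08) and below 5283, 4829, 3629 and 4270.2 CPM in Lymph-Col (log2 fold change -2.23 ± 0.13, adjusted p = 1.5e-09). Of the 7 subunits, 3 were higher and 2 lower than in Cap-Kdr, and 2 higher and 4 lower than in Lymph-Col.

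Of the other induced transcription factors, *Myc*, a regulator of growth and proliferation, was 125, 98.5, 109.9 and 129 CPM in Cap-Rgcc, 32.1, 27.1, 17.9 and 23.6 CPM in Cap-Kdr (log2 fold change 2.62 ± 0.17, adjusted p = 3.8e-11), 70.4, 51.3, 92.0 and 73.8 CPM in Artery (log2 fold change 0.79 ± 0.12, adjusted p = 9.9e-05) and 21.9, 18.3, 24.5 and 23.9 CPM in Lymph-Col (log2 fold change 2.55 ± 0.14, adjusted p = 5.6e-10). *Maff*, a small MAF protein, was 142, 142, 143 and 89.6 CPM in Cap-Rgcc, above 70.9, 32.9, 25.9 and 39.9 CPM in Cap-Kdr (log2 fold change 2.02 ± 0.20, adjusted p = 2.2e-08) but below 622, 629, 1079 and 682 CPM in Lymph-Col (log2 fold change -2.38 ± 0.15, adjusted p = 4.5e-09). *Nr4a3*, an orphan nuclear receptor, was 46.1, 51.5, 34.9 and 25.4 CPM against 14.7, 12.9, 9.83 and 16.3 CPM in Cap-Kdr (log2 fold change 1.81 ± 0.23, adjusted p = 8.7e-07). In each of these contrasts the libraries did not overlap. The related receptor gene *Nr4a1* was 110.4, 126, 153 and 129 CPM in Cap-Rgcc, below 312, 256, 342 and 392 CPM in Artery (log2 fold change -1.2 ± 0.10, adjusted p = 2.9e-07) and below 175, 164, 158 and 219.8 CPM in Vein (log2 fold change -0.39 ± 0.12, adjusted p = 0.013). *Egr1*, a zinc-finger factor that answers growth factors, was 529, 528, 516 and 451 CPM in Cap-Rgcc and 1566, 1142, 1035 and 1287 CPM in Cap-Kdr (log2 fold change -1.0 ± 0.12, adjusted p = 6.9e-07). This role gave 6 higher and 1 lower of 9 against Cap-Kdr, and 1 higher and 6 lower of 10 against Artery.

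The feedback regulators differed in both directions. *Ier3*, a survival gene induced by many stresses, was 3106, 3103, 3543 and 3491 CPM in Cap-Rgcc and 748, 902, 1273 and 992 CPM in Lymph-Col (log2 fold change 1.98 ± 0.12, adjusted p = 2e-09). *Dusp1*, a phosphatase that switches off p38 and JNK, was 1064, 1091, 1048 and 1245 CPM and 588, 516, 517 and 536 CPM in Vein (log2 fold change 1.12 ± 0.08, adjusted p = 2.2e-09). The ERK phosphatase gene *Dusp5* was 64.3, 63.7, 37.1 and 47.9 CPM, above 18.2, 16.3, 22.3 and 24.7 CPM in Vein (log2 fold change 1.23 ± 0.18, adjusted p = 1.4e-05) but below 228, 239, 194 and 210.0 CPM in Lymph-Col (log2 fold change -1.91 ± 0.13, adjusted p = 7.6e-09). *Btg2*, an antiproliferative gene that promotes the removal of mRNA tails, was 511, 453, 409 and 311 CPM in Cap-Rgcc and 1487, 1129, 879.7 and 844 CPM in Cap-Kdr (log2 fold change -1.05 ± 0.12, adjusted p = 2.1e-07). Libraries did not overlap in any of these 5 contrasts. Of the 8 regulators 5 were higher and 2 lower than in Cap-Kdr, 2 and 3 than in Artery, 3 and 0 than in Vein, and 3 and 3 than in Lymph-Col. *Zfp36*, which destabilises cytokine mRNAs, was called in none of the 4 contrasts.

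The chaperones also split. *Hspb1*, a small heat-shock protein, was 2322, 1862, 2486 and 2365 CPM in Cap-Rgcc and 1276, 1055, 1848 and 1387 CPM in Artery (log2 fold change 0.86 ± 0.08, adjusted p = 1.1e-06). *Hspa1a* in Cap-Rgcc, at 108, 60.6, 176 and 58.2 CPM, was below Artery (log2 fold change -2.57 ± 0.19, adjusted p = 6.1e-08) and above 23.8, 42.8, 40.2 and 24.5 CPM in Vein (log2 fold change 1.67 ± 0.18, adjusted p = 5.7e-07). *Hspa1b* was 38.8, 24.3, 80.7 and 15.7 CPM in Cap-Rgcc and 131, 89.0, 234 and 96.0 CPM in Artery (log2 fold change -1.78 ± 0.16, adjusted p = 3.4e-07). These libraries did not overlap between populations. Of the 7 chaperones 4 were higher and 2 lower than in Cap-Kdr, 3 and 2 than in Artery, 5 and 1 than in Vein, and 1 and 4 than in Lymph-Col. Both mitochondrial chaperonin genes were higher than in Lymph-Col, with log2 fold changes of 0.60 ± 0.14 for *Hspe1* and 0.70 ± 0.11 for *Hspd1*.

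**Figure D3:**
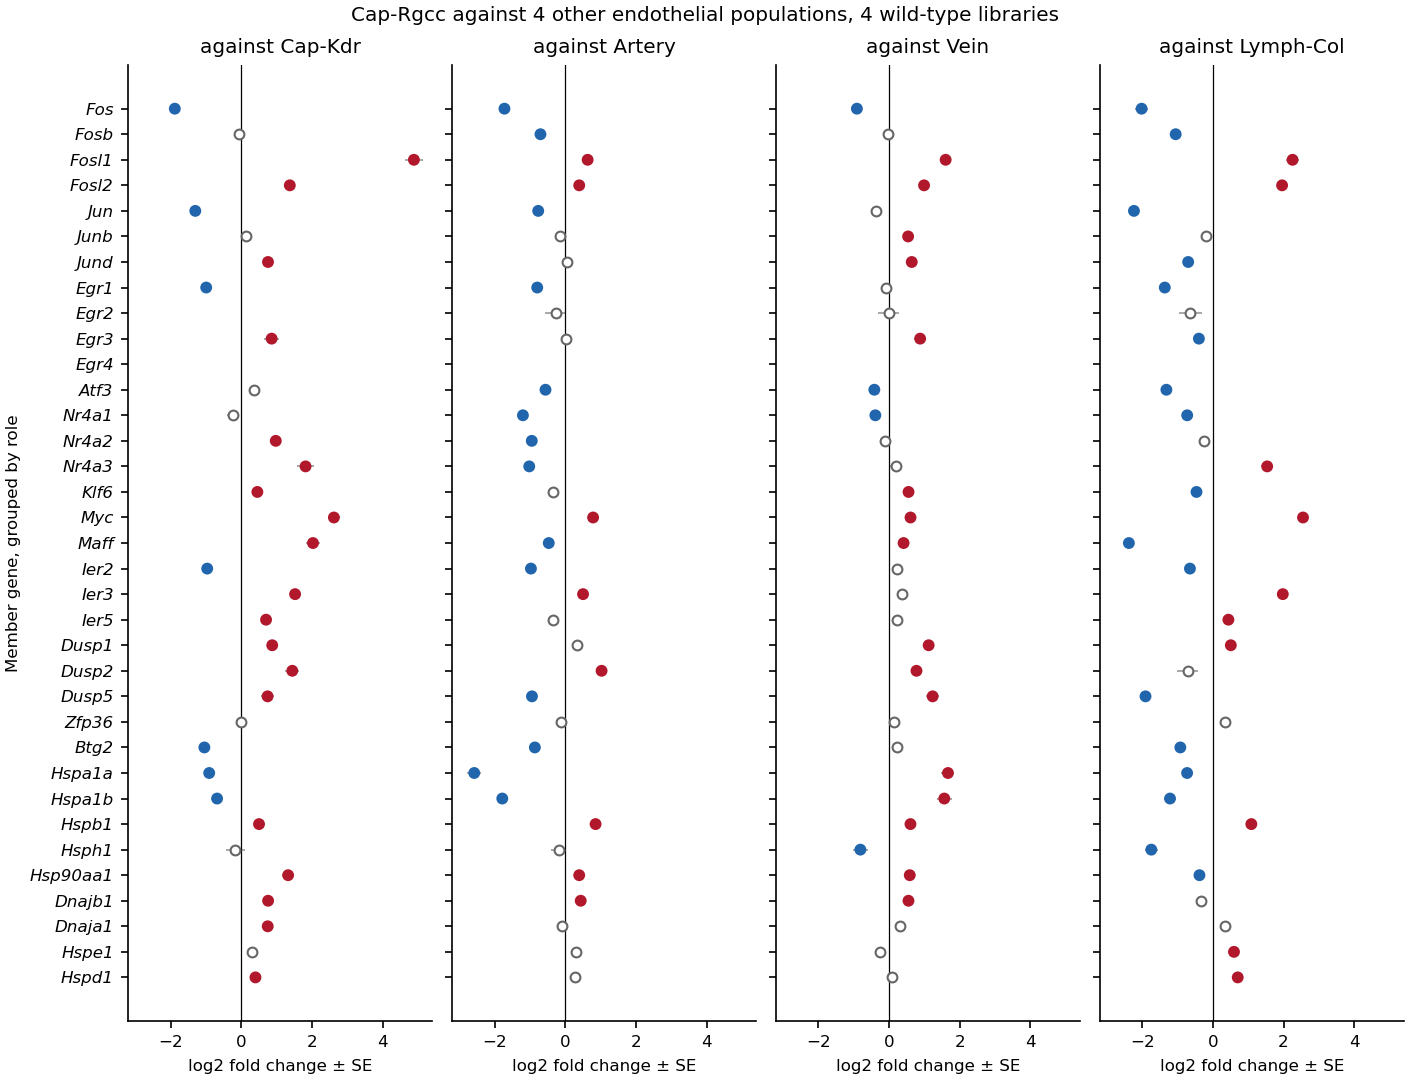
Log2 fold change (bars, SE) of each gene in Cap-Rgcc against Cap-Kdr, Artery, Vein and Lymph-Col over the 4 WT libraries, with filled points for called genes (red higher, blue lower) and open points for the others. *Fosl1* lies at 4.88 against Cap-Kdr and *Fos* lies below 0 in all 4 panels.

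Cap-Rgcc had the fewest cells low in the program of the EC populations. Each cell was thinned to 1500 UMIs, so that depth did not set detection, leaving out 3 to 97 shallower cells per library and EC population, and the share of cells with fewer than 5 of the 26 immediate-early genes was counted. In Cap-Rgcc it was 3.03%, 0.885%, 4.12% and 2.48% in the 4 WT libraries, and in Cap-Kdr 13.4%, 23.5%, 25.3% and 24.8%. It ranged over 9.30% to 14.3% in Artery, 15.1% to 29.6% in Vein, 8.95% to 13.3% in Lymph-Col and 30.6% to 37.2% in Lymph-Cap, so that no other EC population overlapped Cap-Rgcc. The median cell of Cap-Rgcc had 21 to 24 immediate-early UMIs of 1500 in the WT libraries. This overlapped Artery (23 to 29) and Cap-Kdr (20 to 33), was above Vein (16 to 20) and Lymph-Cap (15 to 19), and was below Lymph-Col (29 to 31). These are shares and medians with no test, since cells were grouped by other genes of the same cells.

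In the Alk1 KO libraries the share of such low cells was 0.855% and 2.86% in Cap-Rgcc and 53.9% and 48.0% in Cap-Kdr. Artery had 29.4% and 32.2%, Vein 35.2% and 40.2%, Lymph-Col 19.3% and 17.4% and Lymph-Cap 38.2% and 37.6%. Every one of these but Cap-Rgcc was above its own WT libraries. Cap-Kdr cells had medians of 2435 and 2000.0 UMIs in Alk1 KO and 5039.5 and 3822 in WT telogen before thinning. Thinning left out 45 of 160 and 71 of 169 Cap-Kdr cells in Alk1 KO, and 11 of 130 and 16 of 148 in WT telogen. The Cap-Kdr shares thus cover different parts of the cells in the 2 groups.

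**Figure D4:**
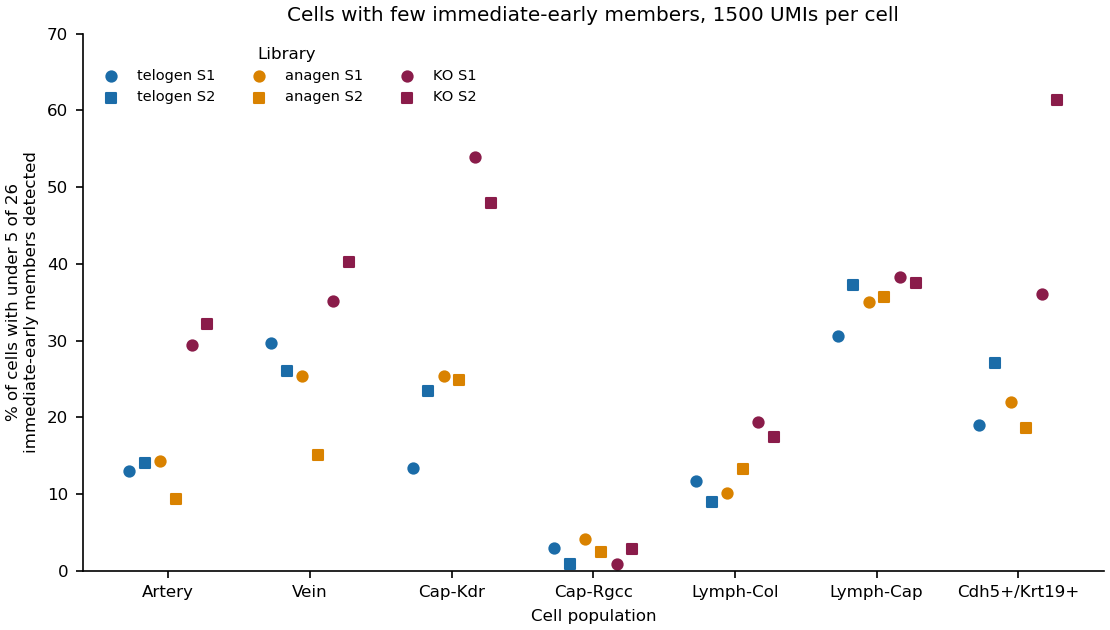
Share of cells (%) with fewer than 5 of the 26 immediate-early genes detected at 1500 UMIs per cell, by population, with 1 point per library. All Cap-Rgcc points lie below 5%, and the Alk1 KO points of Cap-Kdr lie at 48.0% and 53.9%.

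Detection of single genes showed the same split. *Ier3* was detected at 1500 UMIs in 84.8% to 92.0% of Cap-Rgcc cells in WT and in 49.2% to 65.5% of Cap-Kdr cells, and unthinned in 89.9% to 96.0% and 58.1% to 73.1%. *Fosl1* was detected in 9.18% to 19.7% of Cap-Rgcc cells and in 0% to 1.63% of Cap-Kdr cells, and in telogen S1 in 26 of 132 cells, or 19.7% (exact 95% interval 13.3% to 27.5%) of Cap-Rgcc. *Fos* was detected in 34.3% to 46.3% of Cap-Rgcc and 67.3% to 82.4% of Cap-Kdr cells, and unthinned in 52.5% to 74.0% and 68.0% to 84.6%. The intervals cover counting error only. No population is known to lack these genes, so that no background from free RNA could be measured for *Ier3* and *Fos*. Median depth in WT was 3694 to 7447 UMIs in Cap-Rgcc and 2684 to 5122 in Cap-Kdr.

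Between telogen and anagen few of the genes were called in ECs. The comparison asks whether the program follows the hair cycle, and was fitted per population on 2 telogen and 2 anagen libraries, so that its p-values measure the spread between these mice. Age and time since tamoxifen differed with stage and cannot be told apart from it. *Xist* was high in telogen S1 and near 0 in the other libraries of this comparison. No gene was called in Vein (all genes: 0.683%), Cap-Kdr (0.310%), Cap-Rgcc (0.523%) or Lymph-Cap (0.463%) by edgeR's quasi-likelihood test. There 7, 5, 6 and 6 of the 32 to 34 genes tested had an unadjusted p under 0.05. Of all genes, 1238 of 9372, 747 of 8070, 1664 of 9377 and 1113 of 7767 had such a p, in the same order. In Artery 1 of 34 was higher at anagen (all genes: 0.414%) and in Lymph-Col 2 of 34 (1.38%). None was lower in any population, and 1 test was by DESeq2. *Hspa1a* in Artery was 473 and 436 CPM in telogen and 812 and 716 CPM in anagen (log2 fold change 0.85 ± 0.13, adjusted p = 0.031). In Lymph-Col *Hspb1* was 996 and 740.3 CPM in telogen and 1906 and 1512 CPM in anagen (log2 fold change 1.12 ± 0.19, adjusted p = 0.021) and *Dnajb1*, a co-chaperone, 239 and 221 CPM in telogen and 342 and 367 CPM in anagen (log2 fold change 0.75 ± 0.15, adjusted p = 0.035). The stages did not overlap in these 3, all chaperones, which were also called with likely doublets removed.

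Outside the ECs more genes were higher at anagen. Macrophage-like cells had 10 of 34 higher (all genes: 3.20%), with a median log2 fold change of 1.08 beside -0.05 over all genes. *Fos* there was 234 and 315 CPM in telogen and 904 and 1365 CPM in anagen (log2 fold change 2.14 ± 0.28, adjusted p = 0.0018), and *Jun* 194 and 264 CPM in telogen and 1091 and 484 CPM in anagen (log2 fold change 1.99 ± 0.36, adjusted p = 0.01). The receptor gene *Nr4a2* was 28.2 and 25.2 CPM in telogen and 128 and 48.4 CPM in anagen (log2 fold change 2.22 ± 0.31, adjusted p = 0.0022) and *Hspb1* 60.4 and 36.3 CPM in telogen and 237 and 136 CPM in anagen (log2 fold change 2.26 ± 0.32, adjusted p = 0.0024). Stages did not overlap for these 4 genes. The anagen macrophage groups held 100 and 15 cells, against 273 and 667 at telogen, and their 8 endothelial markers summed to 53.4, 59.2, 406 and 261 CPM, higher at anagen, and *Hspb1* stood at 1392 ± 334 CPM (SD, n = 4) in WT Artery. The part of this endothelial RNA in the calls was not tested.

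Fibroblast-like cells had 2 of 33 higher (all genes: 0.280%), *Fos* at 759.8 and 908 CPM in telogen and 1782 and 2028 CPM in anagen (log2 fold change 1.29 ± 0.15, adjusted p = 0.042) and *Jun* at 974 and 900.1 CPM in telogen and 1677 and 2073 CPM in anagen (log2 fold change 1.09 ± 0.16, adjusted p = 0.042). Mast-like cells had 1 of 28 (0.0419%), *Fos* at 999 and 916 CPM in telogen and 6754 and 4045 CPM in anagen (log2 fold change 2.51 ± 0.30, adjusted p = 0.0092), from 11 and 22 anagen cells. In Cdh5+/Krt19+ cells 1 of 35 was called (0.897%), *Egr4*, with 1 UMI in telogen and 23 in anagen, a ratio of 37.8 (95% counting interval 6.13 to 1556). Pericyte-like cells (all genes: 0.0458%) and Dendritic or monocyte-like cells (0.00999%) had none, with 3 and 14 of 34 at an unadjusted p under 0.05. Of all genes, 519 of 8739 and 1283 of 10006 had such a p. The shares of all genes given above ran from 0.00999% to 3.20% per population. In all, 17 of 399 gene-by-population tests were called higher, 22 of the 35 genes were called nowhere, and the count rested on single libraries: 77 were called without anagen S2, 30 without anagen S1, 13 without telogen S1 and 9 without telogen S2. With likely doublets removed 3 remained in 10 populations, Macrophage and Mast then having too few cells to be tested.

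In the Alk1 KO libraries the program was lower in Cap-Kdr. The comparison sets 2 Alk1 KO libraries against the 2 WT telogen libraries that also serve the stage comparison. In Cap-Kdr 24 of 30 genes were lower and 1 higher (all genes: 18.9% and 18.0%), with a median log2 fold change of -1.26 beside -0.01 over all genes. The 35 genes took up 2.70 and 2.01% of UMIs in WT telogen S1 and S2 and 1.60 and 1.17% in Alk1 KO S1 and S2, without overlap. *Fos* stood at 3381 and 2479 CPM in WT telogen and at 1751 and 816 CPM in Alk1 KO (-1.40 ± 0.27), values in parentheses being log2 fold changes ± SE. *Egr1* stood at 1566 and 1142 CPM in WT telogen and at 988 and 854 CPM in Alk1 KO (-0.77 ± 0.20) and *Atf3*, a stress-induced factor, at 676 and 406 CPM in WT telogen and at 342 and 106 CPM in Alk1 KO (-1.48 ± 0.36). In none of the 3 did the groups overlap. *Nr4a1* stood at 224 and 109 CPM in WT telogen and at 56.6 and 81.4 CPM in Alk1 KO (-1.48 ± 0.31) and *Nr4a2* at 93.7 and 61.4 CPM in WT telogen and at 41.9 and 19.8 CPM in Alk1 KO (-1.53 ± 0.36). The MAP kinase phosphatase gene *Dusp2* was at 194 and 82.9 CPM in WT telogen and at 52.4 and 26.4 CPM in Alk1 KO (-2.02 ± 0.39). All 8 feedback regulators were called lower.

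The chaperones of Cap-Kdr moved with them. *Hspa1a* stood at 238 and 144 CPM in WT telogen and at 60.8 and 48.4 CPM in Alk1 KO (-2.02 ± 0.28), *Hspa1b* at 77.6 and 37.2 against 35.6 and 15.4 CPM (-1.37 ± 0.44) and *Hspb1* at 2347 and 1812 against 851 and 695 CPM (-1.64 ± 0.20), and 6 of 6 chaperones tested and both chaperonins were lower. *Klf6*, a Krüppel-like factor, was the gene that rose, from 558 and 492 to 1376 and 1115 CPM (1.04 ± 0.20). Adjusted p of the 10 named genes was 1.4e-05 to 0.023 by edgeR's quasi-likelihood test, and none overlapped between groups. Markers of Cap-Kdr itself differed between WT telogen and Alk1 KO, so cells of this name may differ in kind between the groups. *Cxcl12* was at 3355 and 3521 against 929 and 801 CPM and *Kdr* at 1077 and 1080 against 667 and 772 CPM. *Cd36* was higher, at 2468 and 2791 against 5350 and 3859 CPM. Markers of other cells also differed in Cap-Kdr. In WT telogen and Alk1 KO, 8 macrophage markers summed to 48.2 to 87.2 and 4.40 to 6.29 CPM, 7 immune markers to 53.5 to 84.3 and 16.8 to 24.2 CPM, and 10 fibroblast markers to 100.4 to 151 and 4.40 to 6.29 CPM, with up to 6, 5 and 8 of them at 0 in a library. Transcripts of 5 erythroid genes overlapped between groups, at 1282 to 7228 and 65.0 to 12046 CPM. The part of these in the calls was not tested.

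Cap-Rgcc went the other way. There 10 of 34 genes were higher in Alk1 KO and 2 lower (all genes: 9.59% and 10.8%), with a median of 0.39 beside 0.02. The AP-1 subunit genes gave 4 of the calls and the other transcription factors 5. *Fos* rose from 479 and 596 to 1179 and 1391 CPM (1.28 ± 0.21) and *Fosb*, a further FOS family gene, from 494 and 556 to 1290.2 and 1251 CPM (1.3 ± 0.20). *Egr1* rose from 529 and 528 to 2117 and 1533 CPM (1.82 ± 0.23). These were the largest rises among the immediate-early genes and the groups were well apart. *Atf3* was at 669.5 and 497 against 1206 and 967 CPM (0.92 ± 0.22), *Myc* at 125 and 98.5 against 164 and 193 CPM (0.69 ± 0.22) and *Hspa1b* at 38.8 and 24.3 against 81.7 and 81.4 CPM (1.37 ± 0.30). The 2 genes that fell were *Hspb1*, at 2322 and 1862 against 1251 and 1019 CPM (-0.85 ± 0.22), and *Dusp2*, at 303 and 264 against 133 and 216 CPM (-0.70 ± 0.22). Adjusted p was 5.2e-05 to 0.038, and no group overlapped. Taking both capillary populations of a library together, an alternative chosen after seeing the data, 5 of 34 genes were higher and 5 lower with a median of -0.10 (all genes, either direction: 32.1%). Over the 4 blood EC populations summed 2 of 35 were higher and 9 lower with a median of -0.08 (32.6%). Both shares of the genes were close to those of all genes, and the direction depended on how the capillary cells were divided. In Cap-Rgcc too the macrophage markers were lower in Alk1 KO, at 30.3 to 69.7 against 5.43 to 8.95 CPM, as were the fibroblast markers, at 34.0 to 63.7 against 1.36 to 6.71 CPM. Erythroid transcripts in Cap-Rgcc were 34.0 to 75.8 CPM in WT telogen and 2141 to 2646 CPM in Alk1 KO, and *Il6* was at 1475 and 1584 against 895 and 445 CPM. *Cxcl12* was at 844 and 961 against 226 and 103 CPM there, so cells of this name may also differ in kind between the groups. The part of none of these was tested. Without correction between libraries Cap-Rgcc held 2 cells in each Alk1 KO library and could not be tested, so its calls rest on that correction.

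In Artery 1 of 34 was higher and 4 lower (all genes: 8.37% and 10.4%), shares near or below those of all genes. *Myc* was at 70.4 and 51.3 against 89.3 and 98.0 CPM (0.61 ± 0.19). *Dusp2* was at 215 and 95.5 against 40.7 and 39.7 CPM (-1.96 ± 0.31) and *Ier5*, induced with the heat-shock response, at 667 and 443 against 379 and 375 CPM (-0.56 ± 0.18). *Hspa1a* was at 473 and 436 against 239 and 240.4 CPM (-0.92 ± 0.15) and *Hspd1* at 98.4 and 104 against 58.9 and 72.9 CPM (-0.62 ± 0.18). The groups did not overlap (adjusted p 0.00058 to 0.048). In Vein 3 of 34 were higher and 2 lower (all genes: 9.48% and 11.6%), also below the share of all genes. *Hspa1b* was at 18.2 and 12.0 against 54.2 and 53.5 CPM (1.81 ± 0.30), *Myc* at 65.9 and 69.3 against 185 and 147 CPM (1.29 ± 0.19) and *Egr1* at 718 and 598 against 1064 and 981 CPM (0.62 ± 0.17). *Nr4a1* was at 175 and 164 against 112 and 78.5 CPM (-0.82 ± 0.20) and *Nr4a2* at 152 and 145 against 66.8 and 102 CPM (-0.85 ± 0.21). None of the 5 overlapped between groups (adjusted p 0.00064 to 0.018).

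Lymphatic ECs changed in both directions. In Lymph-Col 6 of 34 genes were higher and 8 lower (all genes: 8.54% and 9.12%). *Ier3* was at 748 and 902 against 1959 and 2184 CPM (1.26 ± 0.14), *Zfp36* at 766 and 673 against 1429 and 1091 CPM (0.74 ± 0.15), *Dusp1* at 945 and 879.7 against 1668 and 1434 CPM (0.70 ± 0.13) and *Fos* at 4003 and 3024 against 5682 and 4512 CPM (0.47 ± 0.15). Among those that fell were *Fosl1*, at 16.7 and 22.1 against 5.03 and 4.49 CPM (-2.08 ± 0.40), and *Hsp90aa1*, the inducible HSP90 gene, at 1397 and 1468 against 777 and 809 CPM (-0.92 ± 0.13). All 3 receptor genes of the NR4A family were lower, *Nr4a1* at 231 and 209.8 against 166 and 95.5 CPM (-0.82 ± 0.22), *Nr4a2* at 182 and 174 against 76.9 and 66.0 CPM (-1.38 ± 0.16) and *Nr4a3* at 16.2 and 16.1 against 7.19 and 4.49 CPM (-1.54 ± 0.40). Groups did not overlap (adjusted p 0.00015 to 0.047).

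Lymph-Cap had 4 of 33 higher and 13 lower (all genes: 6.66% and 8.47%). *Egr1* was at 613 and 541 against 1338 and 1404 CPM (1.2 ± 0.15), *Fos* at 1895 and 1656 against 3434 and 3573 CPM (0.93 ± 0.14), *Ier3* at 746 and 562 against 1362 and 1312 CPM (0.98 ± 0.17) and *Ier2*, a nuclear immediate-early protein gene, at 383 and 337 against 572 and 616 CPM (0.67 ± 0.15), and these 4 were all the rises. The falls took in *Hsp90aa1*, at 1311 and 1079 against 479 and 458 CPM (-1.40 ± 0.16), *Hspa1b*, at 192 and 97.1 against 64.8 and 54.4 CPM (-1.35 ± 0.26), *Fosl1*, at 40.9 and 29.1 against 9.63 and 6.94 CPM (-2.15 ± 0.35), *Atf3*, at 1032 and 962 against 465 and 525 CPM (-1.06 ± 0.15), and *Myc*, at 85.2 and 69.3 against 42.9 and 50.7 CPM (-0.78 ± 0.20). *Nr4a1* was at 81.8 and 84.6 against 39.4 and 36.5 CPM (-1.18 ± 0.19), *Nr4a2* at 64.8 and 47.2 against 20.1 and 24.5 CPM (-1.38 ± 0.25) and *Nr4a3* at 14.8 and 22.2 against 3.06 and 3.65 CPM (-2.45 ± 0.46). Groups did not overlap (adjusted p 0.0001 to 0.021), and 5 of 7 chaperones were lower.

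Cdh5+/Krt19+ cells, of which the Alk1 KO libraries held 76 and 50, had 6 of 34 higher and 2 lower (all genes: 9.75% and 11.2%). *Egr1* was at 1882 and 1796 against 3558 and 3348 CPM (0.79 ± 0.23), *Nr4a1* at 882 and 770.0 against 2409.7 and 1389 CPM (1.11 ± 0.28), *Fosl2* at 333 and 309 against 813 and 512 CPM (0.96 ± 0.25) and *Hspa1b* at 36.7 and 29.5 against 137 and 119.6 CPM (1.87 ± 0.26). *Myc* was at 5.43 and 4.47 against 61.8 and 22.8 CPM (3.14 ± 0.54), on 19 and 4 UMIs in Alk1 KO. In S2 of Alk1 KO the cells were uneven: 61.4% had fewer than 5 of the 26 immediate-early genes at 1500 UMIs and the median cell had 3 immediate-early UMIs, against 36.1% and 44 in Alk1 KO S1 and 18.6% to 27.1% and 29 to 36.5 in WT. *Fos* was detected in 36.4% of cells of Alk1 KO S2, 61.1% of S1 and 69.2% to 78.0% in WT, so that the summed levels in Alk1 KO S2 came from a minority of its cells. *Atf3* at 1315 and 850.3 against 722 and 547 CPM (-0.87 ± 0.27) and the co-chaperone gene *Dnaja1* at 653 and 492 against 377 and 364 CPM (-0.73 ± 0.23) fell. Groups did not overlap (adjusted p 0.0003 to 0.037).

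Fibroblast-like cells had 13 of 33 higher and 4 lower (all genes: 17.0% and 20.9%), and here the arms parted. The rises were immediate-early genes but for *Hspb1*, with *Egr1* at 532 and 561 against 3859.5 and 3495 CPM (2.42 ± 0.25), *Fos* at 759.8 and 908 against 5082 and 5298 CPM (2.30 ± 0.25), *Jun* at 974 and 900.1 against 3737 and 3365 CPM (1.59 ± 0.25) and *Egr2* at 8.31 and 8.69 against 39.6 and 29.3 CPM (1.63 ± 0.42). *Atf3* was at 428 and 369 against 795 and 1038 CPM (0.86 ± 0.24), *Nr4a1* at 143 and 133 against 439 and 392 CPM (1.25 ± 0.23) and *Myc* at 77.9 and 89.7 against 255 and 196 CPM (1.08 ± 0.25). All 4 falls were chaperone or chaperonin genes: *Dnajb1* at 247 and 331 against 101 and 51.8 CPM (-2.30 ± 0.34), *Hsph1*, a nucleotide exchange factor, at 45.5 and 40.7 against 18.0 and 18.0 CPM (-1.60 ± 0.38), *Hspd1* at 169 and 159 against 112 and 115 CPM (-0.87 ± 0.23) and *Hspe1* at 153 and 165 against 104 and 135 CPM (-0.73 ± 0.24). Groups did not overlap (adjusted p 0.00029 to 0.037). The Alk1 KO groups were 29 and 52 cells whose 10 fibroblast markers, none at 0, summed to 7050.0 and 6229.9 CPM against 86211 and 74354 CPM in WT telogen, and the part of this difference in the calls was not tested. The share of genes called lower was below that of all genes.

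In Macrophage-like cells 14 of 33 were higher and 1 lower (all genes: 5.12% and 7.12%), from 23 and 33 Alk1 KO cells. *Fos* was at 234 and 315 against 4499 and 1129 CPM (3.31 ± 0.54), *Jun* at 194 and 264 against 3980.2 and 1053 CPM (3.41 ± 0.53), *Ier2* at 75.8 and 87.7 against 714 and 251 CPM (2.49 ± 0.39) and *Dusp1* at 629 and 736 against 3765 and 2696 CPM (2.22 ± 0.22). *Egr1* was at 202 and 274 against 1219 and 974 CPM (2.19 ± 0.24) and *Atf3* at 665 and 506 against 3495 and 1091 CPM (1.92 ± 0.45), while *Hspa1b* fell, at 304 and 244 against 60.6 and 134 CPM (-1.41 ± 0.35). Groups did not overlap (adjusted p 0.0027 to 0.038), though the 2 Alk1 KO libraries stood far apart for *Fos* and *Jun*. Endothelial markers summed to 53.9 and 176 CPM there. Dendritic or monocyte-like cells had 5 of 34 higher and none lower (all genes higher: 1.06%). *Fos* was at 383 and 361 against 965 and 639 CPM (1.12 ± 0.21), *Jun* at 84.0 and 96.4 against 326 and 241 CPM (1.66 ± 0.21), *Ier2* at 109 and 129 against 243 and 261 CPM (1.13 ± 0.20), *Nr4a1* at 41.7 and 53.3 against 173 and 97.0 CPM (1.43 ± 0.27) and *Myc*, on 3 and 17 UMIs in Alk1 KO, at 2.67 and 3.72 against 14.0 and 22.9 CPM (2.70 ± 0.50). Groups did not overlap (adjusted p 0.022 to 0.0496). In Pericyte-like cells (all genes: 6.46%) and T or NK-like cells (0.0340%) none was called by edgeR's quasi-likelihood test, with 4 of 34 and 9 of 30 at an unadjusted p under 0.05.

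**Figure D5:**
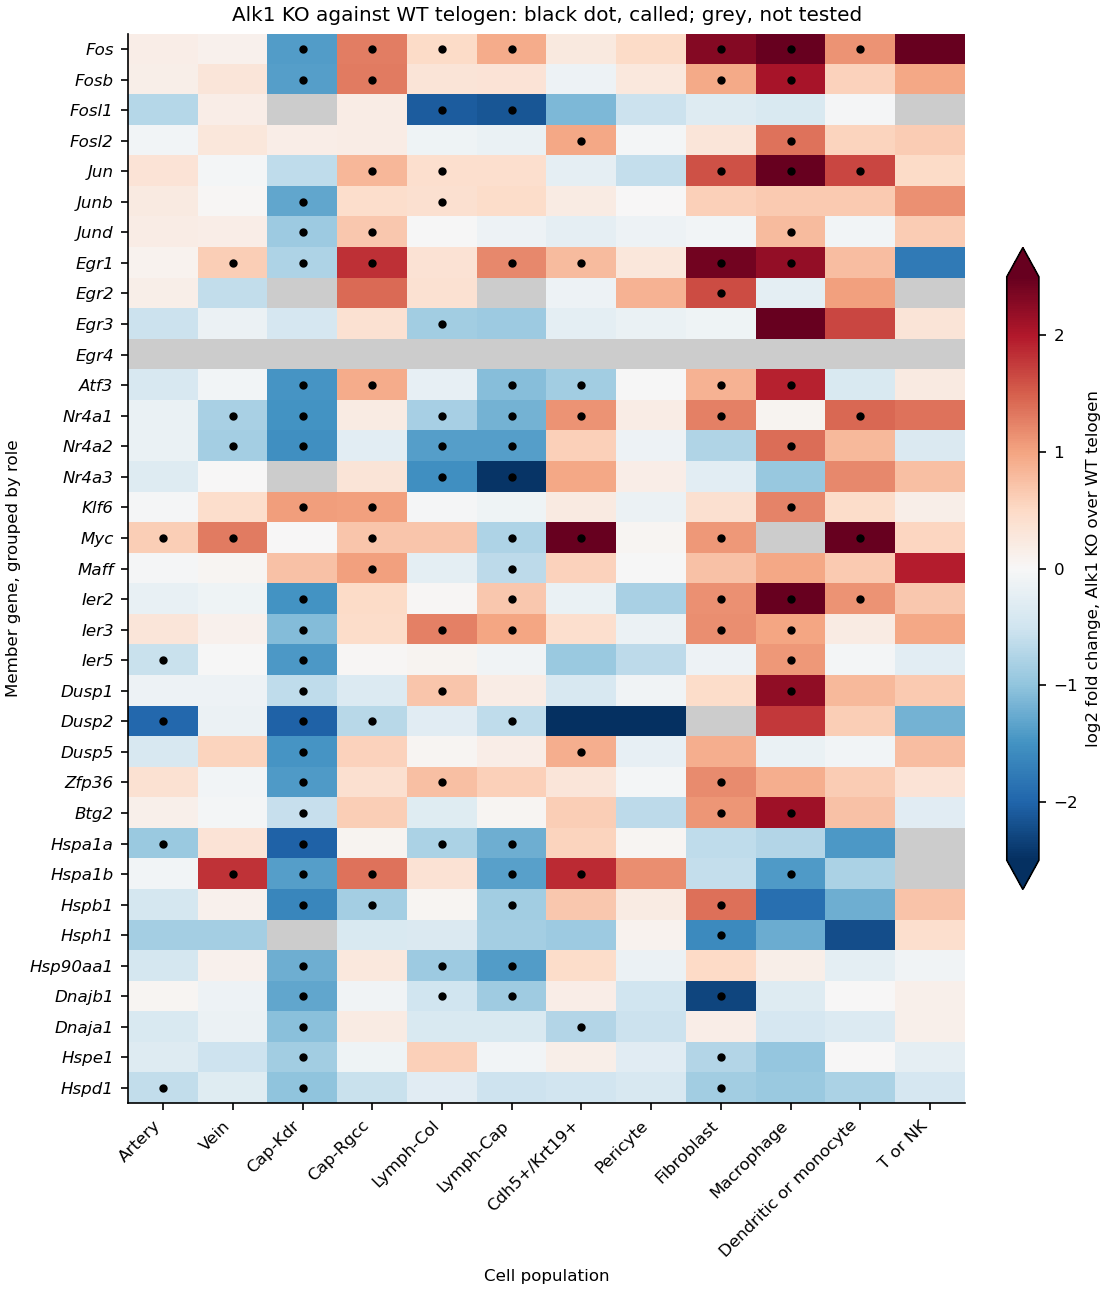
Log2 fold change of each gene in Alk1 KO over WT telogen (colour, red higher and blue lower) in the populations tested, with a black dot where the gene was called and grey where it was not tested. The Cap-Kdr column is blue for nearly all genes, with 24 dots below 0 and 1 above, and the Macrophage and Fibroblast columns are red for most immediate-early genes.

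Over the 12 populations 63 of 397 tests were higher in Alk1 KO and 60 lower. Per population, all genes were called higher in 1.06% to 18.0% and lower in 7.12% to 20.9% of tests, where a direction is given above. These ranges leave out 105 of 9705 genes lower in Dendritic or monocyte-like cells. They also leave out 236 higher and 275 lower of 7905 in Pericyte-like cells, and 1 and 1 of 5891 in T or NK-like cells. No pooled share of all genes was computed. Of the 35 genes 19 were called in both directions, 4 only higher and 11 only lower. The remaining 1, *Egr4*, passed the count filter in no population and was not tested. *Fos*, *Egr1*, *Atf3*, *Nr4a1*, *Myc* and *Hspa1b* were called in at least 6 populations each. *Hspe1*, *Hspd1*, *Hsph1*, *Hsp90aa1*, *Dnajb1* and *Dnaja1* were among those called lower only. The counts rested on the WT telogen libraries: without telogen S2 25 tests were higher and 52 lower, without telogen S1 39 and 32, without Alk1 KO S1 78 and 71, and without Alk1 KO S2 104 and 75. Without correction between libraries 27 were lower, Cap-Rgcc then holding 2 cells in each Alk1 KO library and not being testable.

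The shift of Cap-Rgcc was tested against that of Artery, Vein and Cap-Kdr summed, as a difference of differences. Cap-Kdr gave 747191 and 699852 UMIs of this sum in WT telogen and 476859 and 454584 in Alk1 KO. Artery gave 1392246 and 1246528, and 1153907 and 1235246, and Vein 1260297 and 1168160, and 1347638 and 879061. The test thus cannot tell a change of level from a change in the makeup of the sum. The genotype difference of 15 of 34 genes was more positive in Cap-Rgcc and of 0 more negative (all genes more positive: 1.77%), with a median of 0.66 beside 0.01 over all genes. Against Artery and Vein alone, chosen after seeing the data, it was 8 more positive and 1 more negative (all genes, either direction: 2.87%), and against Cap-Kdr alone 21 more positive (7.52%). Without correction between libraries Cap-Rgcc held too few Alk1 KO cells for this test. Without WT telogen S1 6 genes were called, without telogen S2 10, without Alk1 KO S1 10, and by DESeq2 7. For the stage difference no gene was called by edgeR's quasi-likelihood test or by DESeq2 (all genes, edgeR: 0.490%). By edgeR 5 of 35 had an unadjusted p under 0.05, as did 1151 of 11434 of all genes.

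Of AP-1 subunits, *Fos* had 479 and 596 CPM in WT telogen and 1179 and 1391 CPM in Alk1 KO Cap-Rgcc, beside 2355 and 1793 CPM and 2118 and 1640.0 CPM in the other blood ECs (difference 1.51 ± 0.17). *Fosb* had 494 and 556 CPM in WT telogen and 1290.2 and 1251 CPM in Alk1 KO Cap-Rgcc, beside 763 and 738 CPM and 785 and 775 CPM in the other blood ECs (difference 1.33 ± 0.15). *Jun* had 728 and 884 CPM in WT telogen and 1413 and 1423 CPM in Alk1 KO Cap-Rgcc, beside 1910.4 and 1584 CPM and 1800.0 and 1611 CPM in the other blood ECs (difference 0.96 ± 0.15). The levels in Cap-Rgcc started below those of the other blood ECs for *Fos* and *Jun* and ended nearer to them. *Junb* had 2192 and 2015 CPM in WT telogen and 2878 and 2699 CPM in Alk1 KO Cap-Rgcc, beside 2345 and 1733 CPM and 1832 and 2185 CPM in the other blood ECs (difference 0.53 ± 0.14). *Jund* had 1842 and 1925 CPM in WT telogen and 2540.1 and 3373 CPM in Alk1 KO Cap-Rgcc, beside 1879.9 and 1551 CPM and 1736 and 1815 CPM in the other blood ECs (difference 0.69 ± 0.14).

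Of the other transcription factors, *Egr1* had 529 and 528 CPM in WT telogen and 2117 and 1533 CPM in Alk1 KO Cap-Rgcc, beside 1102 and 803 CPM and 1057 and 997 CPM in the other blood ECs (difference 1.76 ± 0.16). *Atf3* had 669.5 and 497 CPM in WT telogen and 1206 and 967 CPM in Alk1 KO Cap-Rgcc, beside 863 and 631 CPM and 569 and 639 CPM in the other blood ECs (difference 1.31 ± 0.16). For both, Cap-Rgcc was lower than the other blood ECs in WT and higher in Alk1 KO. *Klf6* had 564 and 552 CPM in WT telogen and 1272 and 944 CPM in Alk1 KO Cap-Rgcc, beside 572 and 536 CPM and 724 and 728 CPM in the other blood ECs (difference 0.70 ± 0.16). *Maff* had 142 and 142 CPM in WT telogen and 333 and 229 CPM in Alk1 KO Cap-Rgcc, beside 144 and 115 CPM and 141 and 148 CPM in the other blood ECs (difference 0.93 ± 0.22). Of the feedback regulators, *Ier2* had 592 and 489.6 CPM in WT telogen and 774 and 704 CPM in Alk1 KO Cap-Rgcc, beside 1074 and 797 CPM and 671 and 730.3 CPM in the other blood ECs (difference 0.97 ± 0.16) and *Btg2* had 511 and 453 CPM in WT telogen and 857 and 577 CPM in Alk1 KO Cap-Rgcc, beside 929 and 714 CPM and 724 and 807 CPM in the other blood ECs (difference 0.76 ± 0.18).

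Of the chaperones, *Hspa1a* had 108 and 60.6 CPM in WT telogen and 101 and 73.3 CPM in Alk1 KO Cap-Rgcc, beside 255 and 223 CPM and 124 and 136 CPM in the other blood ECs (difference 1.05 ± 0.25). *Hspa1b* had 38.8 and 24.3 CPM in WT telogen and 81.7 and 81.4 CPM in Alk1 KO Cap-Rgcc, beside 77.4 and 48.5 CPM and 61.4 and 83.7 CPM in the other blood ECs (difference 1.3 ± 0.31). With the UMIs of these near-identical copies summed, Cap-Rgcc had 147 and 84.9 CPM in WT telogen and 182 and 155 CPM in Alk1 KO, and the other blood ECs had 332 and 272 CPM and 185 and 219.9 CPM. The sum was higher in Alk1 KO in Cap-Rgcc and lower in the other blood ECs, without overlap and without a test of its own. *Hsp90aa1* had 1265 and 1002 CPM in WT telogen and 1413 and 1251 CPM in Alk1 KO Cap-Rgcc, beside 784 and 726 CPM and 708 and 596 CPM in the other blood ECs (difference 0.56 ± 0.15). *Dnaja1* had 811 and 769 CPM in WT telogen and 819 and 979.6 CPM in Alk1 KO Cap-Rgcc, beside 730.1 and 725 CPM and 520.1 and 640.0 CPM in the other blood ECs (difference 0.62 ± 0.15). Adjusted p over the 15 genes was 5.9e-10 to 0.022 by edgeR's quasi-likelihood test.

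Genes of the same pathways outside the 35 gave a wider view. Their counts pool populations, and no pooled share of all genes was computed. Per population, all genes were called in 0.00999% to 3.20% of stage tests. They were called higher in 1.06% to 18.0% and lower in 7.12% to 20.9% of genotype tests, where a direction is given above. In the Cap-Rgcc contrasts 18.2% to 26.4% were higher and 19.1% to 27.2% lower. Fibroblast-like cells had far lower fibroblast markers in Alk1 KO than in WT telogen, as given above. Genotype values named for them may therefore compare cells that differ in kind. Over 40 other immediate-early genes the stage comparison had 17 of 426 tests higher and 0 lower, led by *Sgk1*, a serum-induced kinase, in Macrophage (3.49 ± 0.35) and *Dusp6*, an ERK phosphatase, in Fibroblast (3.45 ± 0.42). The genotype comparison had 104 of 434 tests higher and 30 lower, with *Sgk1* in Macrophage (3.26 ± 0.52) and *Ccn2*, a matricellular gene, in Fibroblast (3.20 ± 0.45) the largest rises and *Ptgs2*, the inducible cyclooxygenase gene, the largest fitted falls, in Cdh5+/Krt19+ (272 UMIs in WT telogen and 0 in Alk1 KO, at least 4.99-fold lower against a floor of 3 UMIs over the group) and Fibroblast (-4.26 ± 0.42). Cap-Rgcc against the 4 EC populations had 58 of 147 tests higher and 49 lower, and *Noct*, which encodes nocturnin, was higher than in Lymph-Col (4.12 ± 0.14) and Cap-Kdr (3.36 ± 0.18), while *Ccn2* was lower than in Vein (-3.31 ± 0.23) and *Cebpb* lower than in Lymph-Col (-2.78 ± 0.25).

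The difference of genotype effects between Cap-Rgcc and the other blood ECs was called for 15 of 37 other immediate-early genes, all more positive (all genes: 1.77%). The largest were those of the flow-responsive factor gene *Klf2* (1.61 ± 0.15) and *Ccn1* (1.61 ± 0.23). The stage difference was called for *Klf2* (0.87 ± 0.13), 1 of 39 (all genes, either direction: 0.490%). Over 25 other heat-shock response genes the genotype comparison had 8 of 271 tests higher and 60 lower, with list medians of -0.72 to -0.15, below 0 in all 12 populations, where the median of all genes was between -0.14 and 0.03. *Serpinh1*, a collagen chaperone, fell in Fibroblast (-4.09 ± 0.28) and *Ahsa1*, an activator of HSP90, in Macrophage (3 UMIs in Alk1 KO, a ratio of WT telogen to Alk1 KO of 7.58, 95% counting interval 2.58 to 36.8). *Dedd2* rose in Fibroblast (2.80 ± 0.52) and *Hspb8*, a small heat-shock protein gene, in Cdh5+/Krt19+ (2.69 ± 0.35). The fibroblast markers, collagen genes among them, were also lower in the Alk1 KO Fibroblast-like cells, and the part of this in the Fibroblast values was not tested. Cap-Rgcc against the 4 EC populations had 40 of 92 tests higher and 9 lower, with *Hspb8* above Cap-Kdr (4.86 ± 0.37) and Artery (3.02 ± 0.17) and *Hspa4l* (-2.94 ± 0.17) and *Dnajb4* (-1.24 ± 0.16) below Lymph-Col. The stage comparison had 1 of 266 tests higher and 1 lower, both in Macrophage, *Dnajb4* (1.24 ± 0.26) and *Ahsa1* (-1.77 ± 0.45), and the genotype effect differed between Cap-Rgcc and the other blood ECs for genes that included *Serpinh1* (0.92 ± 0.17).

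The 14 upstream regulators, kinases and bound factors whose activity is set mostly after transcription, had 15 of 142 tests higher and 4 lower between genotypes, 1 of 137 tests higher and 0 lower between stages (*Elk3* in Cdh5+/Krt19+, 1.60 ± 0.30) and 7 of 46 tests higher and 9 lower between Cap-Rgcc and the 4 EC populations. These counts pool populations, and with no pooled share of all genes they cannot show whether the list as a whole stood out. *Mrtfb*, a coactivator of serum response factor, rose in Alk1 KO Cap-Kdr (2.18 ± 0.24) and Artery (1.61 ± 0.16), while *Elk3* fell in Cap-Kdr (-1.14 ± 0.22) and *Mapk3*, the ERK1 gene, in Cdh5+/Krt19+ (-1.29 ± 0.27). In Cap-Rgcc *Mrtfb* was higher than in Lymph-Col (2.09 ± 0.19) and *Mapk8* than in Cap-Kdr (0.83 ± 0.17), with *Hsf2* lower than in Lymph-Col (-1.74 ± 0.19) and *Mapk3* lower than in Artery (-1.28 ± 0.10). The genes named from the 3 lists had adjusted p of 9.8e-13 to 0.048 by edgeR's quasi-likelihood test.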

How the data were processed

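Single-cell libraries of back skin were made on a 10x Genomics Chromium platform with 3′ chemistry, 1 per mouse. The authors counted UMIs per gene and barcode, and the deposited values were raw whole-number counts, not normalized; the submitters' processing notes name Cell Ranger 6.0.1, mm10 and Seurat 4.0. Samples were grouped by their labels.

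Cells with 200 to 5000 genes and under 10% mitochondrial UMIs were kept. They were normalized, corrected between libraries with Harmony and clustered with scanpy 1.11.5 (Python 3.11.15) without the 35 genes, the related lists and their regulators. Population names were rebuilt from marker genes and may differ from those of the study. Clusters without clear markers stayed unnamed. Likely doublets were kept and removed in an alternative, by Scrublet's threshold or, where that marked under 0.5% of cells, the 5% with the highest scores. UMIs were summed per library and population with at least 10 cells in every library compared. The sums were tested in edgeR 4.0.16 (R 4.3.3) with filterByExpr, TMM factors and the quasi-likelihood test, and Benjamini-Hochberg adjustment across the genes that passed the filter. Standard errors were derived from the fold change and its F statistic. Genes were called where the adjusted p was below 0.05 and the fold exceeded 1.3. The fit was tested on simulated data, where 28% of genes changed by 1 on the log2 scale, and 75% of those changed by 2, were recovered in the stage comparison of Cap-Rgcc, 36% and 88% in its genotype comparison and 90% and 93% for Cap-Rgcc against Cap-Kdr.

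The 35 genes and all lists were chosen with earlier results of these data known. Values are given for *Fos* and *Hspa1a* across populations, for up to 4 rises and 4 falls per comparison, the largest among called genes whose libraries did not overlap, for genes called in at least 6 of 12 populations of a comparison, and for genes called for a difference between populations. From the other lists up to 2 rises and 2 falls are named. A result on 1 gene of these lists is not reported here. *Jun*, *Fosl2*, *Nr4a1*, *Hspe1*, *Hspd1* and other genes named beside these were added after their values were seen where they fall outside that rule. Alternatives were other cell filters, clusterings, count filters, scalings, DESeq2 1.42.0, blocks and each library left out. Sums over several blood EC populations and other comparison populations for the difference of differences were chosen after seeing the data.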

Additional observations from a re-analysis of the deposited data

Results flagged for a closer look

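For 15 genes the change from WT telogen to Alk1 KO differed between Cap-Rgcc and Artery, Vein and Cap-Kdr summed, by edgeR's quasi-likelihood test of the difference itself with Benjamini-Hochberg adjustment. The difference on the log2 scale was 1.76 for *Egr1*, 1.51 for *Fos*, 1.33 for *Fosb*, 1.31 for *Atf3*, 1.3 for *Hspa1b*, 1.05 for *Hspa1a* and 0.97 for *Ier2*. It was 0.96 for *Jun*, 0.93 for *Maff*, 0.76 for *Btg2*, 0.70 for *Klf6*, 0.69 for *Jund*, 0.62 for *Dnaja1*, 0.56 for *Hsp90aa1* and 0.53 for *Junb*. All were more positive in Cap-Rgcc. They rest on the correction between libraries, without which Cap-Rgcc held too few Alk1 KO cells to be tested.

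A further 9 genes were lower in both Alk1 KO libraries than in WT telogen in some populations and higher in others, and the difference between those populations was not tested. The largest rise on the log2 scale was 3.14 for *Myc*, which was lower in Lymph-Cap, and 2.22 for *Dusp1*, lower in Cap-Kdr. It was 1.43 for *Nr4a1* and 1.39 for *Nr4a2*, both lower in Vein, Cap-Kdr and the lymphatic ECs. It was 1.39 for *Hspb1*, lower in both capillary populations and Lymph-Cap. For genes lower in Cap-Kdr it was 1.26 for *Ier3*, 1.18 for *Zfp36*, 1.08 for *Ier5*, which was lower in Artery as well, and 0.91 for *Dusp5*.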

How the results depend on the processing

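Of the counts of calls, the stage counts moved most. The 17 tests higher at anagen became 63 with no filter on low counts, 8 with all 6 libraries in the fit, 10 with under 5% mitochondrial UMIs, 3 with likely doublets removed and 11 with no correction between libraries. The 0 lower became 9 with no filter, 1 by DESeq2 and 4 with the replicate block. The 60 tests lower in Alk1 KO became 27 with no correction, 39 with Cap-Kdr and Cap-Rgcc summed and 37 with the 4 blood EC populations summed. The 19 genes higher in Cap-Rgcc than in Cap-Kdr became 9 with under 5% mitochondrial UMIs, 12 with no correction and 11 at resolution 1.2. The 8 higher than in Artery became 4 with no library block, and the 16 higher than in Vein became 9 with under 5% mitochondrial UMIs. For the differences between populations, the stage count of 0 became 1 with no filter and 1 with under 5% mitochondrial UMIs, and the genotype count of 15 became 7 by DESeq2 and 9 against Artery and Vein alone. The pooled share of WT Cap-Rgcc cells with *Fos*, 39.0% at 1500 UMIs, was 62.9% unthinned and 50.3% at 3000 UMIs. The cause was not tested.

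With 1 library left out, stage tests ranged from 9 to 77 higher and 0 to 18 lower (18 without anagen S1, 9 without anagen S2), and genotype tests from 25 to 104 higher and 32 to 75 lower. Genes higher in Cap-Rgcc ranged from 17 to 21 against Cap-Kdr, 7 to 9 against Artery, 16 to 16 against Vein and 9 to 11 against Lymph-Col. Those with a different change in Cap-Rgcc ranged from 0 to 2 for stage and 6 to 17 for genotype. A group left with 1 library was assumed to vary like the others. With the replicate block 24 stage tests were higher and 4 lower, and 73 genotype tests higher and 67 lower. The libraries share only a number, since deviations of same-numbered libraries correlated at -0.155 to 0.157. For single genes, 1658 values kept their direction and call, 217 lost the call, 2 moved (the share of Cap-Rgcc cells with *Hspa1a* at other depths) and 1 reversed: *Nr4a1* in Vein, at 0.04 (adjusted p 0.94, edgeR) with no correction between libraries.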
